A study of Homo sapiens with 6 samples.

Results

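A panel of 43 lysosome and autophagy genes was followed after knockdown of Ki67 in SCC-9 cells. The genes were chosen by symbol from a list of 16 hydrolases, 9 membrane or cofactor proteins, 5 proton pump genes, 2 transcription factors and 11 autophagy genes, and all 43 were found among the 25349 genes of the count table. No expression value entered the rule, although the list was drawn up with earlier results of these data known. SCC-9 is an established human cell line derived from a tongue squamous carcinoma. It was grown with 400 ng/mL hydrocortisone and received 10 nM siRNA by lipofection on day 0 and again on day 2. The siE7 group (3 libraries) received siRNA directed at exon 7 of MKI67, which encodes the proliferation marker Ki67, and the siNC group (3 libraries) received a nonspecific siRNA. No untransfected cells were included, so both groups share the transfection, and the labels do not say which siRNA sequence was used or whether the replicates were separate cultures. P-values therefore measure the spread between these libraries, which may be technical.

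Lysosomes are acidic compartments in which hydrolases break down proteins, glycans and lipids. A proton pump, the V-ATPase, keeps the lumen acidic, and membrane proteins hold the compartment together and export its products. In autophagy, a double membrane closes around cytoplasmic cargo and fuses with the lysosome. The related transcription factors TFEB and TFE3 can bind short E-box motifs near the start sites of many of these genes, and the kinase mTORC1, which senses nutrients on the lysosomal surface, keeps both factors in the cytoplasm.

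Polyadenylated RNA was sequenced, and the deposited values were read counts per gene, between 25608192 and 29550264 per library. Levels are given here in CPM, counts relative to library size after TMM scaling, and differences as log2 fold changes of siE7 against siNC from edgeR's quasi-likelihood test, with p-values adjusted by Benjamini-Hochberg over the 14661 genes tested. A gene passed the test at an adjusted p under 0.05. A differentially expressed gene (DEG) also had a log2 fold change above 1 or below -1. MKI67 itself stood at 1072, 1029 and 1077 CPM in the siNC libraries and at 112, 124 and 108 CPM in the siE7 libraries, a log2 fold change of -3.21 with an edgeR adjusted p of 6.7e-08. Over the libraries alone the exact permutation p was 0.10, the smallest that 3 against 3 allows. All 9 squamous markers were above 1 CPM, with a summed level of 24932 to 26440.4 CPM with siNC and 22651 to 29022 CPM with siE7. Singly, KRT5, TP63, EPCAM, CDH1, SFN and DSP passed the edgeR test as lower with siE7, at log2 fold changes of -0.33 for TP63 to -1.03 for CDH1, and KRT17 as higher at 0.70. Their part in the results was not tested. Of 7 leukocyte and macrophage markers, PTPRC, TYROBP, AIF1 and CD3E were not listed in the table, and the other 3 summed to between 7.57 and 7.81 CPM with siNC and between 3.77 and 6.92 CPM with siE7. The fibroblast markers summed to 16.4 to 19.5 CPM with siNC and 18.2 to 24.1 CPM with siE7, and the endothelial markers to at most 0.492 CPM in any library. Since whole cultures were sequenced, a change in the make-up of the culture and a change in RNA per cell cannot be told apart.

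The first siE7 library stood apart from the other siE7 libraries, and this touched many of the 43 genes. Its chi-square statistic per degree of freedom was 61.1 and 72.7 against the other siE7 libraries, while the remaining pairs within a group had 5.54 to 6.22. Across 42 of the genes, its log2 level minus the mean of the other siE7 libraries rose with the GC content of the transcript (Pearson r = 0.79). The same r was 0.66 over the 14645 tested genes with a GC value, so the trend was shared with the rest of the transcriptome. These correlations are across genes of the same libraries and carry no p. The median of this difference was 0.34 on the log2 scale for the 42 genes and -0.00 for all tested genes. Replicate 1 was the highest of the 6 libraries for 18 of the 42 genes (42.9%), against 25.1% of all tested genes. The median difference was 0.41 for the hydrolases, 0.45 for the proton pump genes and -0.01 for the autophagy genes. For these 42 genes, values without this library therefore stand beside the calls that change with it.

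**Figure D1:**
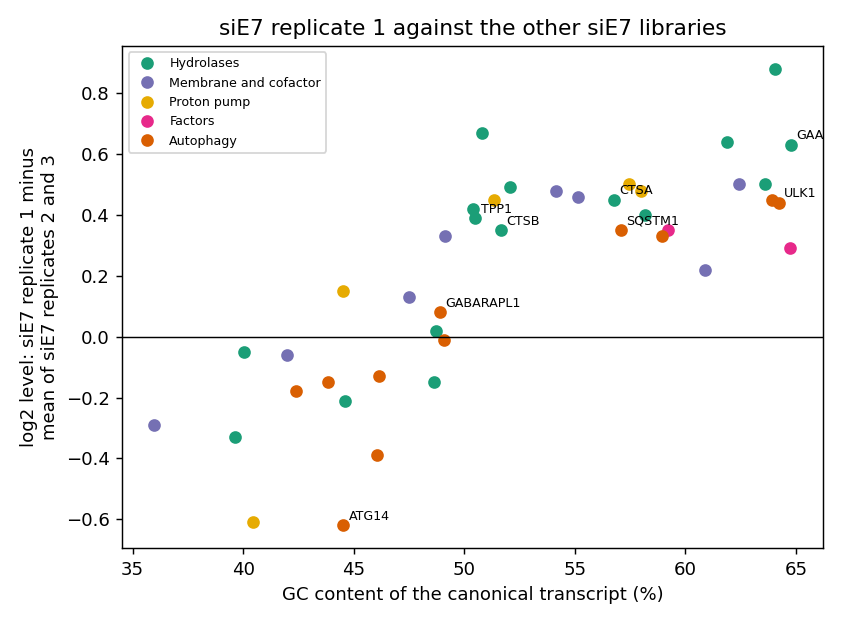
Log2 level in siE7 replicate 1 minus the mean log2 level in siE7 replicates 2 and 3 (vertical axis) against the GC content of the canonical transcript in percent (horizontal axis), with 1 point for each of 42 genes coloured by class. The points rise from -0.62 for ATG14 to 0.88 for NAGLU, and the genes with the highest GC content lie above 0.

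Of the 43 genes, 42 had enough counts to be tested. CLN3, whose protein sits in the lysosomal membrane, was at most 0.327 CPM in any library and was left out. With siE7, 10 of the 42 genes were higher (23.8%, against 18.0% of all tested genes), 4 were lower (9.52%, against 16.0%) and 28 did not pass the test. The genes that rose were ATG14, GABARAPL1, ULK1, SQSTM1 and MAP1LC3B among the autophagy genes and GAA, CTSD, GLA, CTSC and CTSL among the hydrolases. Those that fell were TPP1, CTSB, CTSA and NPC2. ATG14, GABARAPL1 and ULK1 were DEGs with higher levels and TPP1 was a DEG with a lower level, 4 genes in all, and 12.2% of all tested genes were DEGs. The median log2 fold change was 0.10 for the 42 genes and 0.08 for all tested genes. Every siE7 library lay above every siNC library for 15 of the 42 genes, while the background was 24.9%. They lay below for 5, against a background of 22.7%, and the groups overlapped for the other 22. The 43 genes took 0.354%, 0.345% and 0.352% of the counts of the siNC libraries and 0.450%, 0.402% and 0.402% of those of the siE7 libraries. These are shares of raw counts, without scaling for composition. Leaving out that scaling also moved the median of all tested genes up, by 0.169 on the log2 scale.

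The counts depended on siE7 replicate 1 and on the scaling between libraries. Without that replicate, 12 genes were higher (28.6%, with 28.9% of all tested genes) and 16 were lower (38.1%, with 29.5%), and these included all 14 genes named above. Leaving out any other library gave 2 lower (4.76%, against 10.3% to 12.9% of all tested genes). Without scaling for composition, 20 were higher (47.6%, against 27.5% of all tested genes) and 3 lower (7.14%, against 11.1%). Of the panel's calls without this scaling, 87.0% were higher, in place of 71.4%. That choice moved the median of all tested genes by 0.169 on the log2 scale, and NPC2 no longer passed the test. CTSB, CTSL, TPP1, SQSTM1, MAP1LC3B, GABARAPL1, ULK1 and ATG14 passed in the same direction under each of the 15 alternatives tried.

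**Figure D2:**
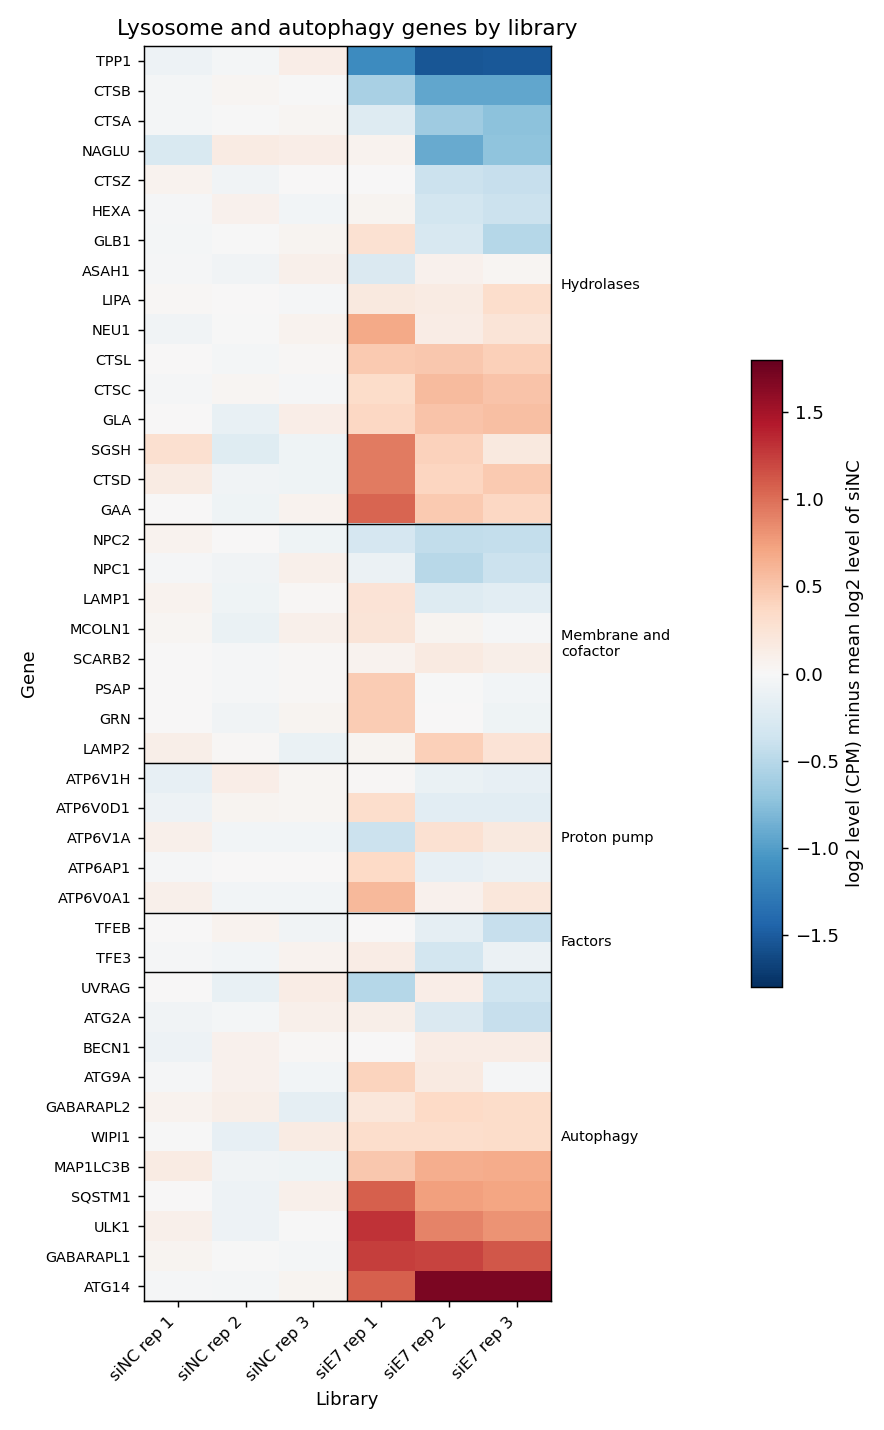
Log2 level in CPM of each of the 42 tested genes (rows, by class) in each of the 6 libraries (columns), minus the gene's mean log2 level in the siNC libraries, on a colour scale from blue (lower) to red (higher). ATG14, GABARAPL1, ULK1 and SQSTM1 are red in all 3 siE7 libraries and TPP1, CTSB and CTSA are blue in all 3, while GLB1, LAMP1 and ATP6AP1 are red in siE7 replicate 1 and blue in the other siE7 libraries.

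The promoter sequences show which of these genes carry the E-box in the window next to the start site. RefSeq promoter windows of GRCh38.p14, from 250 bases before to 50 bases after each start, were matched by symbol for 33 of the 43 genes. CTSB, HEXA, ASAH1, SGSH, NAGLU, LAMP2, PSAP, ATP6V1A, ATP6V1H and UVRAG had no entry. The E-box CACGTG was searched, and so was the longer TCACGTGA, which contains it and has the form bound by TFEB in many lysosomal promoters. Both read the same on either strand. The E-box was present in 9 of the 33 genes (27.3%) and in 7.2% of all 34943 windows, and the longer form in 6 (18.2%) and in 1.0%. A gene with several windows counted if any of them held the motif, whereas the background counted single windows, so the shares are not on the same unit. Genes of each direction held the E-box, with 3 of 10 that were higher, 1 of 3 that were lower and 4 of 19 that did not pass the test. A match describes the letters only and says nothing of binding. The stretches below are those of the genes with the E-box that passed the test, and of 3 that did not, printed 5′ to 3′ on the gene's strand with the motif in capitals.
CTSA, lower, chr20:45891300-45891325, plus strand: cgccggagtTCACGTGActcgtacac
GAA, higher, chr17:80101495-80101520, plus strand: gaggccgcgTCACGTGAcccaccgcg
GAA, second site, chr17:80101540-80101565, plus strand: tcccgccggTCACGTGAcccgcctct
CTSD, higher, chr11:1763959-1763984, minus strand: cggccgcgccCACGTGaccggtccgg
ATG14, higher, chr14:55411836-55411861, minus strand: aacaaaatccCACGTGactggctctc
LAMP1, not passing, chr13:113297201-113297226, plus strand: cccgcgggaTCACGTGAcgcccgggc
MCOLN1, not passing, chr19:7522573-7522598, plus strand: cagaggcggTCACGTGAggggctctg
ATP6V0D1, not passing, chr16:67481201-67481226, minus strand: cccttatggTCACGTGAggcgcttgc
The capitals mark the longer form in CTSA, GAA, LAMP1, MCOLN1 and ATP6V0D1, and the E-box alone in CTSD and ATG14. These motifs lie between 21 and 76 bases before the start. CTSA, LAMP1 and MCOLN1 hold further E-boxes in the same window that are not shown.

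Among the 11 autophagy genes, 5 were higher with siE7 (45.5%, against 18.0% of all tested genes), 6 did not pass the test and 0 were lower (against 16.0%). At an unadjusted p under 0.05 edgeR gave 6 higher and 0 lower, and DESeq2 gave 5 higher and 0 lower. When siE7 replicate 1 was left out, 6 were higher (54.5%, against 28.9%) and 1 was lower (9.09%, against 29.5%). The median log2 fold change was 0.31. The 5 genes that rose act at successive stages of the route: ULK1 starts it, ATG14 belongs to the lipid kinase complex that marks the forming membrane, MAP1LC3B and GABARAPL1 become attached to that membrane, and SQSTM1 brings cargo to it.

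ATG14 had the largest log2 fold change of the 42 genes. It lies on chromosome 14 from 55366391 to 55411830 on the minus strand of GRCh38 and encodes the subunit that directs the VPS34 lipid kinase to autophagosome formation. Its level was 43.4, 43.2 and 45.6 CPM in the siNC libraries and 92.8, 142 and 143 CPM in the siE7 libraries. The groups were far apart, and siE7 replicate 1 was the lowest of its group. The log2 fold change was 1.51 (SE 0.161, edgeR adjusted p = 5.6e-05), a 2.86-fold rise, and stayed between 1.39 and 1.69 under the 15 alternatives. ATG14 overlaps FBXO34 in the annotation. Other subunits of the lipid kinase complexes did not pass the test with all libraries. BECN1, the scaffold of these complexes, was at 165, 185 and 178 CPM with siNC and 176, 192 and 193 CPM with siE7, and the groups overlapped (log2 fold change 0.09, 95% interval -0.15 to 0.32). UVRAG, which takes the place of ATG14 in the complex that acts on endosomes, had a log2 fold change of -0.23 with a 95% interval of -0.68 to 0.22 and did not pass either. PIK3C3, the catalytic subunit VPS34, is not among the 43 genes and was singled out after its values were seen. It was at 8.63, 9.09 and 10.7 CPM with siNC and 8.16, 19.1 and 21.1 CPM with siE7, so that siE7 replicate 1 lay below the controls and the other siE7 libraries above them (log2 fold change 0.77, 95% interval 0.14 to 1.40, edgeR adjusted p = 0.060). The difference between ATG14 and these genes was not tested.

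GABARAPL1 encodes an LC3-like protein that is joined to lipid on the autophagosome membrane. The gene is on chromosome 12 from 10212458 to 10223128 on the plus strand. It stood at 26.4, 25.4 and 24.8 CPM with siNC and at 60.7, 59.4 and 55.2 CPM with siE7. Replicate 1 lay close to the other siE7 libraries here. The log2 fold change was 1.19 (SE 0.115, edgeR adjusted p = 2.6e-05), with a range of 1.11 to 1.36 over the alternatives, so that it was a DEG in each of them. An antisense gene, GABARAPL1-AS1, overlaps it. MAP1LC3B, the best known LC3 gene, was at 29.9, 25.7 and 25.4 CPM with siNC and 37.7, 42.4 and 42.8 CPM with siE7. Its groups did not overlap, and it rose by a log2 fold change of 0.60 (SE 0.127, edgeR adjusted p = 0.0039). GABARAPL2, of the same family, was at 44.8, 46.2 and 38.5 CPM with siNC and 49.5, 55.4 and 54.2 CPM with siE7. Its groups did not overlap either, but the log2 fold change of 0.30 had an adjusted p of 0.080 in edgeR. Without siE7 replicate 1 GABARAPL2 passed the test at 0.28 on the log2 scale, and its adjusted p ranged from 0.0018 to 0.34 over the alternatives.

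ULK1, the kinase that starts autophagosome formation, lies on chromosome 12 from 131894622 to 131923150 on the plus strand. Its level was 20.0, 17.6 and 18.7 CPM with siNC and 46.0, 34.8 and 32.8 CPM with siE7. Every siE7 library was above every siNC library, and siE7 replicate 1 was the highest. The log2 fold change of 1.01 (SE 0.153, edgeR adjusted p = 5.3e-04) was just past the DEG threshold. Without siE7 replicate 1 it was 0.79, which passed the test but was no longer a DEG. ULK1 also passed without being a DEG under other alternatives, among them DESeq2 (0.96), RLE scaling (0.97), the GC trend removed (0.97) and the replicate block. Its range over the alternatives was 0.79 to 1.17. SQSTM1 encodes the cargo receptor p62, which binds ubiquitin and LC3 proteins and is itself degraded in the lysosome. SQSTM1 was at 299.7, 281 and 317 CPM with siNC and 632, 498 and 491 CPM with siE7. This rise, a log2 fold change of 0.85 (SE 0.125, edgeR adjusted p = 4.3e-04), was 0.67 without siE7 replicate 1. MGAT4B and MRNIP overlap SQSTM1 on the other strand.

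The other autophagy genes had smaller differences. WIPI1, which binds the lipid made by the VPS34 kinase, was at 11.9, 10.8 and 13.2 CPM with siNC and 14.8, 14.8 and 15.0 CPM with siE7. Its libraries did not overlap, and its log2 fold change was 0.31 with an edgeR adjusted p of 0.12. WIPI1 passed at 0.28 with the GC trend removed (edgeR adjusted p = 0.044). ATG9A, a lipid scramblase on the vesicles that seed the membrane, had a log2 fold change of 0.19 (95% interval -0.10 to 0.47). ATG2A, which carries lipids to the growing membrane, had -0.17 (95% interval -0.50 to 0.15). Neither passed the main edgeR test. With the GC trend removed both passed, ATG9A at 0.21 (edgeR adjusted p = 0.032) and ATG2A at -0.21 (edgeR adjusted p = 0.047). ATG2A was also lower without siE7 replicate 1, at -0.40 on the log2 scale.

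**Figure D3:**
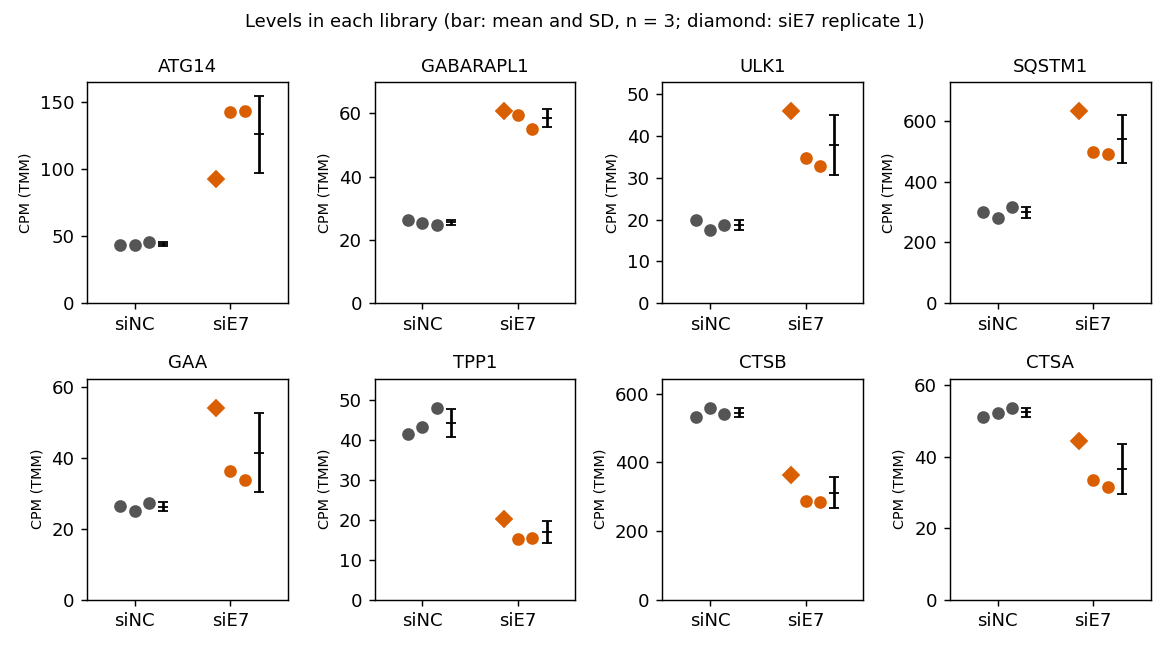
Levels in CPM after TMM scaling (vertical axes, from 0) of 8 genes in each siNC and siE7 library, with the mean and SD of each group (n = 3) as a bar and siE7 replicate 1 as a diamond. The groups do not overlap in any panel. Replicate 1 is the lowest siE7 library for ATG14 and the highest for GABARAPL1, ULK1, SQSTM1, GAA, TPP1, CTSB and CTSA.

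Among the 16 hydrolases, 5 were higher with siE7 (31.2%, against 18.0% of all tested genes), 3 were lower (18.8%, against 16.0%) and 8 did not pass the test, with a median log2 fold change of 0.09. The same class had 5 higher (31.2%, against 28.9%) and 7 lower (43.8%, against 29.5%) without siE7 replicate 1. The largest change was a fall. TPP1, a serine protease that removes tripeptides from the ends of proteins, lies on chromosome 11 from 6612768 to 6619448 on the minus strand. It was at 41.4, 43.2 and 48.1 CPM with siNC and 20.1, 15.2 and 15.4 CPM with siE7. The highest siE7 library was below the lowest siNC library by a wide margin. The log2 fold change was -1.39 (SE 0.147, edgeR adjusted p = 5.5e-05), a 2.62-fold fall, and ranged from -1.59 to -1.22 over the alternatives. Unnamed gene models overlap TPP1 on both strands.

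The cathepsins, the main lysosomal proteases, moved in both directions. CTSB, a cysteine cathepsin, was at 533, 559.6 and 541 CPM with siNC and 364, 286 and 284 CPM with siE7. Replicate 1 was the siE7 library closest to the controls, and the log2 fold change of -0.81 (SE 0.121, edgeR adjusted p = 5.2e-04) became -0.99 without it. CTSA, which protects beta-galactosidase and neuraminidase in a complex, was at 51.2, 52.4 and 53.8 CPM with siNC and 44.5, 33.6 and 31.5 CPM with siE7. The groups were separate, with a log2 fold change of -0.52 (SE 0.143, edgeR adjusted p = 0.016). CTSA did not pass the test when any library other than siE7 replicate 1 was left out, with adjusted p-values up to 0.069, and was at -0.75 without siE7 replicate 1. Its gene overlaps NEURL2 and PLTP on the other strand.

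CTSL and CTSC, also cysteine cathepsins, went the other way from CTSB. CTSL was at 144, 140 and 146 CPM with siNC and 199, 199.7 and 193 CPM with siE7, with little spread in either group. The log2 fold change was 0.46 (SE 0.101, edgeR adjusted p = 0.0049). CTSC, which activates serine proteases of granules, was at 73.7, 76.7 and 73.3 CPM with siNC and 93.3, 110.1 and 106 CPM with siE7, a log2 fold change of 0.47 (SE 0.111, edgeR adjusted p = 0.0074). CTSD, the main aspartic protease of lysosomes, was at 21.5, 18.7 and 18.4 CPM with siNC and 37.1, 25.5 and 26.9 CPM with siE7. Its siE7 replicate 1 was well above the others, and the log2 fold change of 0.61 (SE 0.164, edgeR adjusted p = 0.014) fell to 0.36 without it and still passed. CTSZ, a carboxypeptidase, was at 539, 495 and 519 CPM with siNC and 518, 396 and 387 CPM with siE7. The CTSZ groups overlapped only through siE7 replicate 1, and the log2 fold change of -0.26 did not pass (edgeR adjusted p = 0.15), whereas it was -0.46 and passed without that library. CTSZ also passed at -0.24 with the GC trend removed (edgeR adjusted p = 0.0065).

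Among the glycosidases, GAA and GLA rose. GAA, which degrades glycogen, was at 26.3, 24.9 and 27.4 CPM with siNC and 54.2, 36.3 and 33.9 CPM with siE7. Replicate 1 was by far the highest, and the log2 fold change was 0.66 (SE 0.173, edgeR adjusted p = 0.012) with it and 0.36 without it. GLA, the alpha-galactosidase that is deficient in Fabry disease, was at 24.7, 22.3 and 26.7 CPM with siNC and 31.8, 34.8 and 35.8 CPM with siE7, a log2 fold change of 0.48 (SE 0.128, edgeR adjusted p = 0.014). It overlaps RPL36A on the other strand. Of the genes called, GAA and GLA did not pass when siNC replicate 1 or siNC replicate 2 was left out, with adjusted p-values up to 0.065 for GAA and 0.097 for GLA. CTSC did not pass without siNC replicate 1 or 3 (up to 0.055), and CTSD did not pass without siNC replicate 2 or 3 (up to 0.078).

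The other glycosidases and lipases did not pass. NEU1, a sialidase, was at 37.8, 39.2 and 41.1 CPM with siNC and 63.0, 43.2 and 46.4 CPM with siE7, and the groups did not overlap (log2 fold change 0.37, edgeR adjusted p = 0.077). The NEU1 estimate was 0.12 without siE7 replicate 1, and passed at 0.35 with the GC trend removed (edgeR adjusted p = 0.0071). GLB1, the beta-galactosidase whose activity is used as a senescence stain, was at 23.5, 24.1 and 24.9 CPM with siNC and 29.2, 19.7 and 17.0 CPM with siE7. Its siE7 replicate 1 was above all controls and the other siE7 libraries were below them, so the log2 fold change was -0.14 (edgeR adjusted p = 0.60) and -0.46 without replicate 1, where it passed the test. NAGLU, which degrades heparan sulfate, had the largest difference between siE7 replicate 1, which lay within the range of the controls, and the other siE7 libraries, which lay below it. NAGLU was at 7.94, 10.7 and 10.5 CPM with siNC and 10.1, 5.14 and 5.85 CPM with siE7, with a log2 fold change of -0.46 (edgeR adjusted p = 0.17) that became -0.88 without replicate 1. With the GC trend removed NAGLU passed at -0.52 (edgeR adjusted p = 0.016). The adjusted p-values over the alternatives ranged from 1.1e-04 to 0.95 for GLB1 and from 9.8e-06 to 0.45 for NAGLU.

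SGSH, a sulfatase for heparan sulfate, had a log2 fold change of 0.53 with a 95% interval of 0.04 to 1.03 and an edgeR adjusted p of 0.091. The SGSH estimate was 0.23 without siE7 replicate 1, and passed at 0.51 with the GC trend removed (edgeR adjusted p = 0.014). HEXA, a subunit of beta-hexosaminidase, had -0.21 (95% interval -0.52 to 0.10) with all libraries and -0.42 without siE7 replicate 1, where it passed the test (adjusted p = 3.9e-05, with 0.78 as the highest over the alternatives). The acid lipase gene LIPA was at 13.8, 13.7 and 13.5 CPM with siNC and 15.5, 15.2 and 17.0 CPM with siE7, a log2 fold change of 0.22 with an edgeR adjusted p of 0.24. ASAH1, the acid ceramidase, was at -0.05 with a 95% interval of -0.39 to 0.30.

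**Figure D4:**
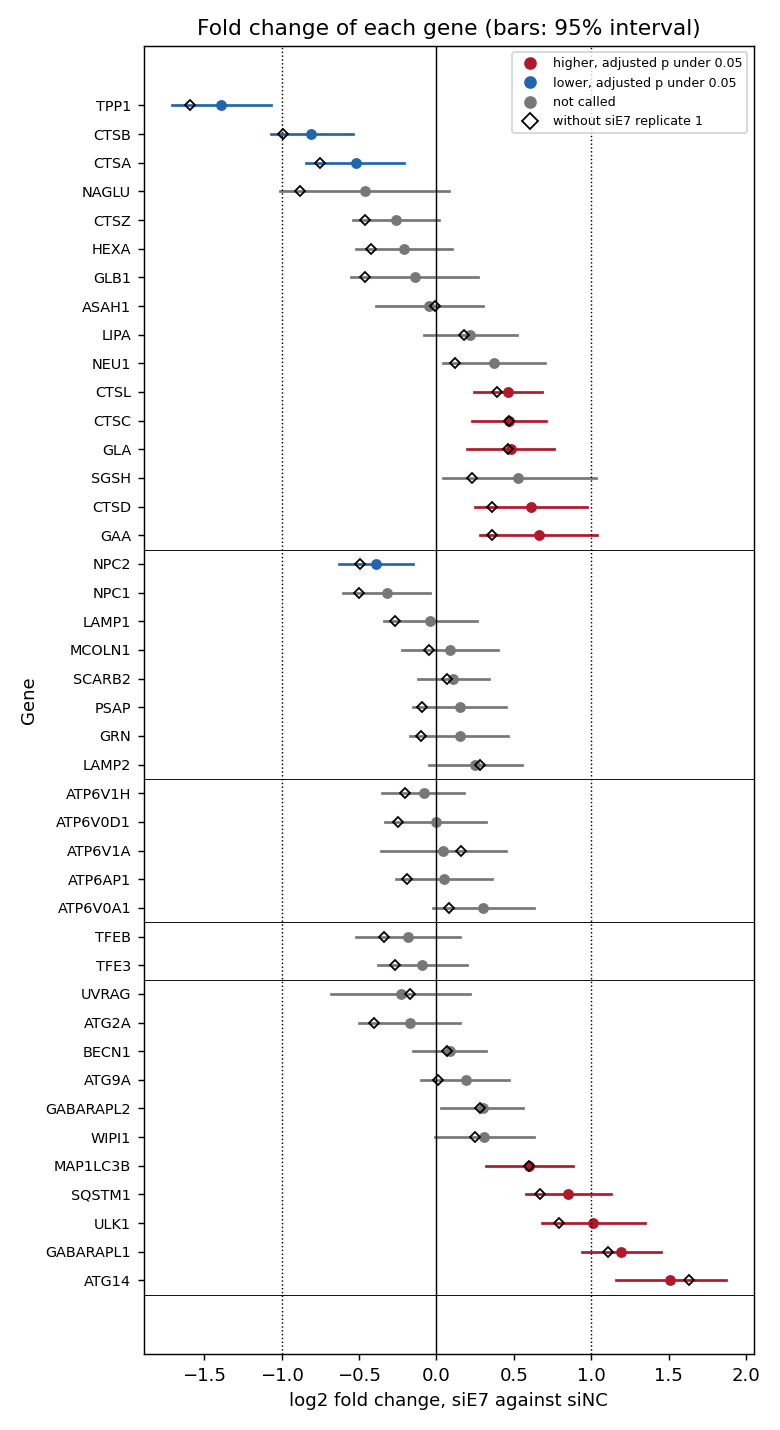
Log2 fold change of siE7 against siNC (horizontal axis) for each of the 42 tested genes, by class, with 95% intervals as bars, genes that passed the test in red (higher) or blue (lower) and the others in grey. Open diamonds give the estimate without siE7 replicate 1, which lies to the left of the main estimate for most hydrolases, and dotted lines mark log2 fold changes of -1 and 1.

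Of the 9 membrane and cofactor genes, 8 were tested and 1 passed, as lower (12.5%, against 16.0% of all tested genes). None was higher, against 18.0% of all tested genes. NPC2, which hands cholesterol to NPC1 inside the lysosome, was at 68.4, 66.0 and 61.9 CPM with siNC and 53.1, 48.1 and 48.8 CPM with siE7. The groups did not overlap, and the log2 fold change was -0.39 (SE 0.111, edgeR adjusted p = 0.019). It did not pass when any library other than siE7 replicate 1 was left out (adjusted p up to 0.10). NPC1, which passes the cholesterol on through the membrane, was at 55.8, 54.4 and 60.4 CPM with siNC and 52.8, 40.3 and 43.6 CPM with siE7. NPC1 was also below the controls in all siE7 libraries, at -0.32 on the log2 scale with an edgeR adjusted p of 0.077. It passed at -0.50 without siE7 replicate 1 (adjusted p = 2.5e-07) and at -0.35 with the GC trend removed (adjusted p = 0.0055), and its adjusted p reached 0.27 over the alternatives. At an unadjusted p under 0.05, 2 genes of this class were lower and 0 higher, and DESeq2 gave 1 lower and 0 higher. Leaving out siE7 replicate 1 gave 3 lower (37.5%, against 29.5% of all tested genes) and 1 higher (12.5%, against 28.9%).

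The structural glycoproteins of the membrane did not pass with all libraries and TMM scaling. LAMP1 was at 125, 113 and 121 CPM with siNC and 142, 102 and 105 CPM with siE7. Its siE7 libraries lay on both sides of the controls, with a log2 fold change of -0.04 (95% interval -0.34 to 0.26). LAMP2, which also serves uptake of proteins by the lysosome, was at 30.8, 29.0 and 26.5 CPM with siNC and 29.7, 38.6 and 34.0 CPM with siE7, a log2 fold change of 0.25 (95% interval -0.05 to 0.55). When siE7 replicate 1 was left out, both passed, LAMP1 as lower at -0.27 (adjusted p = 1.4e-04) and LAMP2 as higher at 0.28 (adjusted p = 0.0061). Over all alternatives their adjusted p-values reached 0.97 and 0.52. SCARB2, the receptor that carries glucocerebrosidase to the lysosome, had 0.11 (95% interval -0.12 to 0.34), and MCOLN1, a calcium channel of the lysosomal membrane, had 0.09 (95% interval -0.22 to 0.40). PSAP, the precursor of the saposins that help enzymes reach lipids, was at 604, 595 and 612 CPM with siNC and 827, 599 and 585 CPM with siE7. Its siE7 replicate 1 was well above the controls and the other siE7 libraries were close to them, and the log2 fold change was 0.15 (95% interval -0.15 to 0.45). GRN, the gene of progranulin, was likewise highest in siE7 replicate 1, at 132, 126 and 136 CPM with siNC and 180.5, 132 and 124 CPM with siE7.

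None of the 5 proton pump genes passed the edgeR test, 0 had an unadjusted p under 0.05, and DESeq2 also called 0. Of all tested genes, 18.0% passed in edgeR as higher and 16.0% as lower. Their log2 fold changes were 0.30 for ATP6V0A1 and -0.00 for ATP6V0D1, subunits of the membrane sector, 0.04 for ATP6V1A and -0.08 for ATP6V1H, subunits of the cytoplasmic sector, and 0.05 for the accessory protein ATP6AP1. The groups overlapped for all 5. The ATP6V0A1 estimate was 0.08 without siE7 replicate 1, and passed at 0.28 with the GC trend removed (edgeR adjusted p = 0.029). Without siE7 replicate 1, ATP6V0D1 at -0.25, ATP6V1H at -0.20 and ATP6AP1 passed the test as lower (60.0%, against 29.5% of all tested genes). The ATP6AP1 estimate changed sign there, to -0.19 with an adjusted p of 0.017, and its adjusted p ranged from 0.017 to 1.00 over the alternatives.

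The transcripts of both transcription factors were measured at levels that overlapped between the groups. TFEB was at 17.1, 17.7 and 16.2 CPM with siNC and 17.0, 15.2 and 12.7 CPM with siE7, a log2 fold change of -0.18 with a 95% interval of -0.52 to 0.15 (edgeR adjusted p = 0.38). TFE3 was at 66.2, 64.6 and 69.9 CPM with siNC and 73.3, 53.2 and 62.1 CPM with siE7, a log2 fold change of -0.09 with a 95% interval of -0.38 to 0.20 (edgeR adjusted p = 0.63). Neither had an unadjusted p under 0.05 and DESeq2 called 0 of them. Both passed as lower without siE7 replicate 1, at -0.34 for TFEB (adjusted p = 0.0080) and -0.27 for TFE3 (adjusted p = 0.0010). Their adjusted p-values over the alternatives reached 0.92 and 0.94. Since these factors act by moving into the nucleus, their activity was not measured here.

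Compared per kilobase of transcript, the order of levels within the panel was led by the same few genes in both groups. In the siNC libraries the mean level was 345 CPM per kilobase for CTSZ, 219.7 for PSAP, 146 for CTSB and 105 for SQSTM1. With siE7 the levels per kilobase were 289 for CTSZ, 244 for PSAP, 190.4 for SQSTM1 and 119 for CTSL, followed by 88.7 for BECN1 and 83.4 for CTSB. At the low end UVRAG had 1.31 CPM per kilobase with siNC and 1.12 with siE7.

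Other genes of these processes were taken from a list of 202, of which 198 were in the table and 185 were tested. Of the 185, 27 were higher (14.6%, against 18.0% of all tested genes) and 22 lower (11.9%, against 16.0%) with siE7. Without siE7 replicate 1 these counts were 55 (29.4%, against 28.9%) and 58 (31.0%, against 29.5%). Leaving out any other library except siE7 replicate 3 took the first to between 13 and 17, with 10.6% to 13.0% of all tested genes higher. The genes named are those with the smallest p-values of each group and direction. The 41 tested nutrient-sensing genes include ones that report amino acids and energy to mTORC1, but also MTOR itself and others such as ZKSCAN3. They had 10 higher (24.4%), 0 lower and 31 not passing, with a median log2 fold change of 0.19. For that 0, edgeR gave 3 genes lower at an unadjusted p under 0.05 and DESeq2 called 1 lower. Without siE7 replicate 1, 17 were higher (40.5%, against 28.9% of all tested genes) and 10 lower (23.8%, against 29.5%). NPRL2, a subunit of the GATOR1 complex that restrains mTORC1, was at 7.29, 9.13 and 7.88 CPM with siNC and 23.4, 19.9 and 21.1 CPM with siE7. Its log2 fold change was 1.41 with an edgeR adjusted p of 6.8e-05. PRKAB2, a subunit of the energy sensor AMPK, rose by 1.06 on the log2 scale. SESN2, a leucine sensor and stress gene, rose by 1.00.

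Among the 45 other autophagy genes tested, 3 were higher (6.67%, against 18.0% of all tested genes) and 4 lower (8.89%, against 16.0%). Their median log2 fold change was 0.10. Without siE7 replicate 1, 15 were higher (33.3%, against 28.9%) and 10 lower (22.2%, against 29.5%). The cargo receptors NBR1 and CALCOCO2 rose by 0.61 and 0.50, and TP53INP1, which binds LC3 proteins, rose by 0.70. ATG7, the enzyme that activates LC3 proteins for their lipid attachment, fell from 26.8, 30.2 and 27.7 CPM with siNC to 13.9, 14.2 and 16.2 CPM with siE7, a log2 fold change of -0.93 (edgeR adjusted p = 4.0e-04). PINK1, a kinase that marks damaged mitochondria for autophagy, and EPG5, a tether for fusion with the lysosome, had -0.67 and -0.61.

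The other lysosomal genes also moved both ways. Of 40 further hydrolases, 6 were higher (15.0%, against 18.0% of all tested genes) and 8 lower (20.0%, against 16.0%), with a median of -0.18. Without siE7 replicate 1, 41 were tested, with 8 higher (19.5%, against 28.9%) and 18 lower (43.9%, against 29.5%). CTSF, a cysteine cathepsin, PPT1, which removes palmitate from proteins, and ARSA, a sulfatase, rose by 0.86, 0.54 and 0.94. The sulfatases IDS and ARSB and the lipid-binding cofactor GM2A had -1.10, -1.45 and -0.71. Of 18 genes for sorting hydrolases to the lysosome, 3 were higher (16.7%, against 18.0%) and 4 lower (22.2%, against 16.0%). IGF2R, the large mannose 6-phosphate receptor, fell from 222, 208 and 224 CPM with siNC to 130.4, 114 and 103 CPM with siE7, a log2 fold change of -0.91 (edgeR adjusted p = 2.0e-04). The sorting receptor SORT1 had -1.16, and GNPTAB, the enzyme that builds the mannose 6-phosphate tag, had -1.08. NAGPA, which uncovers that tag, GNPTG, a further subunit of the enzyme, and AP3B1, a subunit of a vesicle adaptor, rose by 0.66, 0.50 and 0.60. The sorting genes had 5 higher (27.8%, against 28.9%) and 8 lower (44.4%, against 29.5%) without siE7 replicate 1.

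Of 27 other membrane proteins, 3 were higher (11.1%, against 18.0% of all tested genes) and 5 lower (18.5%, against 16.0%). Without siE7 replicate 1, 7 were higher (25.9%, against 28.9%) and 9 lower (33.3%, against 29.5%). The transporters SLC17A5 and SPNS1 and the RNA transport protein SIDT2 rose by 0.74, 0.80 and 0.69, while the calcium and sodium channel TPCN1 and the LAMP-family member LAMP3 had -1.07 and -1.55 and LITAF, an adaptor on endosomal membranes, had -0.72. Of 14 other pump genes, 2 were higher (14.3%, against 18.0%) and 1 was lower (7.14%, against 16.0%). Without siE7 replicate 1 there were 3 of each (21.4%, against 28.9% higher and 29.5% lower of all tested genes). ATP6V1G1, a stalk subunit, rose from 85.3, 89.2 and 97.0 CPM with siNC to 139, 192 and 207 CPM with siE7, a log2 fold change of 0.99 (edgeR adjusted p = 5.0e-04). ATP6V1E1, of the same stalk, had 0.47, and ATP6V0A2, of the membrane sector, had -0.54. ARSA, SLC17A5, SPNS1, SIDT2, NAGPA, GNPTG, AP3B1, CALCOCO2, TP53INP1, EPG5, ATP6V1E1 and ATP6V0A2 each lost their call under at least 1 alternative. For SIDT2 these alternatives included leaving out siE7 replicate 1. ZKSCAN3, which was higher in the main edgeR test, passed under 6 of the 15 alternatives, and MTOR and PIK3C3 did not pass the main test. The others named from this list as higher or lower passed under all alternatives tried.

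**Figure D5:**
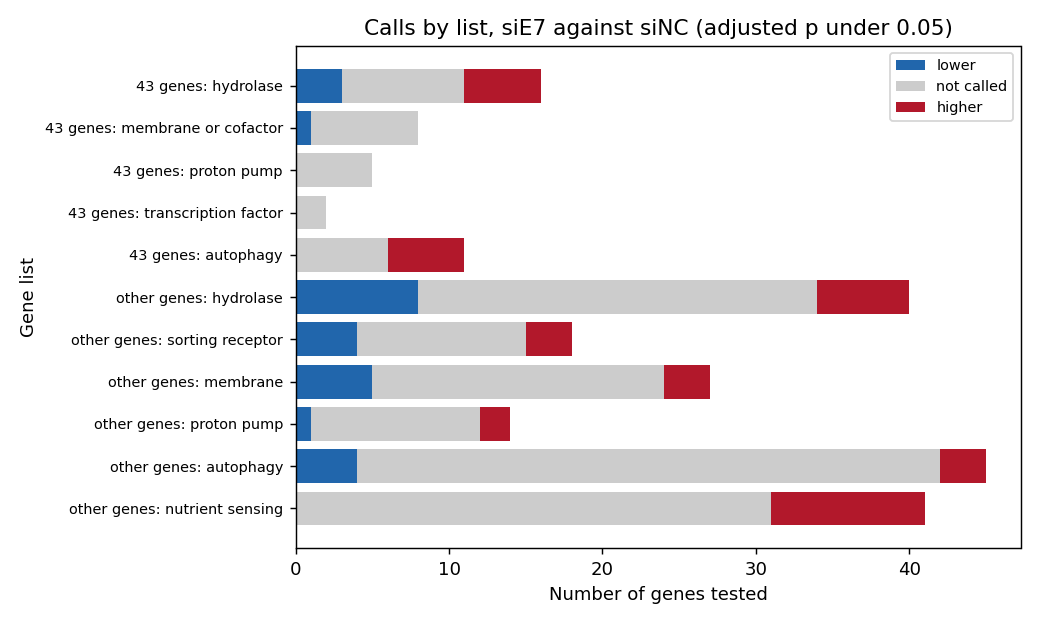
Number of tested genes (horizontal axis) that were lower (blue), did not pass the test (grey) or were higher (red) with siE7 against siNC in each class of the 43 genes and in each of the 6 lists of other genes of these processes. The autophagy class of the panel and the list of 41 nutrient-sensing genes show red and no blue, with 5 and 10 genes higher when all libraries are used, while the hydrolases show both.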

How the data were processed

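Read counts per gene were deposited by the authors for 3 siE7 and 3 siNC libraries of SCC-9 cells, made from polyadenylated RNA with a directional protocol. The submitters' processing notes name HISAT2, DESeq2 and GRCh38. The counting tool, the annotation release and the use of strand are not given in the sources used here. Reads of the 32 panel genes that overlap another annotated gene may therefore include that gene's reads. The counts were tested with edgeR 4.0.16 in R 4.3.3 (TMM scaling, filterByExpr, robust quasi-likelihood fit, group as the only term), with Benjamini-Hochberg adjustment over 14661 genes. Gene positions, transcript lengths and GC content came from GENCODE release 44, matched for 25283 of 25349 identifiers. Intervals are 95%. The scripts were tested on simulated counts. Every panel gene was named, and of the other genes those with the 3 smallest p-values per list and direction. The 43 genes and the other lists were chosen with earlier results of these data known. Alternatives were DESeq2 1.42.0, other scalings, low-count filters, a GC correction, a replicate block and leaving out each library.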

Additional observations from a re-analysis of the deposited data

How the results depend on the processing

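Over 15 alternatives and 42 genes, 568 of 630 estimates stayed on the same side of the threshold, 42 gained a call, 19 lost it and 1 was reversed, ATP6AP1 at -0.19 without siE7 replicate 1. Of the 28 genes that did not pass, 11 changed the sign of their estimate under some alternative, and 0 of the 14 that passed did. DESeq2, RLE or upper-quartile scaling, no filter, and at least 10 counts in every library each gave 10 higher and 4 lower, the same 14 genes. Under these settings 11.6% to 19.4% of all tested genes were higher and 10.0% to 17.5% lower. With the GC trend removed, 15 genes were higher and 8 lower, and of the other 185 genes 48 were higher and 49 lower, while 24.6% of all tested genes were higher and 26.0% lower. With no composition scaling, 20 genes were higher, 51 of the other genes were higher (27.5% of all tested genes), and the panel's median log2 fold change was 0.27 in place of 0.10. The cause of these shifts was not tested.

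Leaving out 1 library at a time gave 7 to 12 genes higher, 2 to 16 lower, 3 to 4 DEGs, medians of 0.00 to 0.14, and 3153 to 8765 calls over all genes against 4990 with all libraries. Of the other genes, 13 to 55 were higher and 17 to 58 lower. Across these fits 10.6% to 28.9% of all tested genes were higher and 10.3% to 29.5% lower. The highest count of calls came without siE7 replicate 1, and the lowest counts came without an siNC library; the cause was not tested. MKI67 ranged from -3.27 to -3.04 over all alternatives.

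The replicate numbers showed no pairing of the libraries: deviations from the group means of libraries with the same number had r = -0.04, -0.02 and -0.05, and no library correlated best with its own number. Because siE7 replicate 1 stood apart and weighs on the deviations of its whole group, these values cannot decide whether same-numbered libraries shared a culture. With the replicate block, 10 genes were higher and 4 lower, the same 14, and 3 were DEGs. Of the other genes, 32 were higher and 23 lower. The block called 17.7% of all tested genes higher and 16.1% lower. With the replicate block and the GC trend removed, 14 were higher and 8 lower, and 50 of the other genes were higher and 50 lower. Of all tested genes, 24.3% were higher and 25.8% lower in that fit. NAGLU, SGSH and UVRAG, the tested genes of the panel with the lowest levels, had the widest intervals, so small differences were not detectable there. Without siE7 replicate 1 the SE fell from 0.249 to 0.157 for NAGLU, from 0.227 to 0.163 for SGSH and from 0.206 to 0.167 for UVRAG. The cause of the wide intervals was not tested.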
